A study of Drosophila melanogaster with 12 samples.

Results

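The genes described are 5 genes of Drosophila melanogaster that carry C-type lectin names or annotations, lectin-24A (FBgn0040104), lectin-37Da (FBgn0053532), lectin-37Db (FBgn0053533), CG14499 (FBgn0034317) and CG43055 (FBgn0262357). They are 5 of the 9981 genes with values, and they were chosen by name with their measured values in the same libraries in view. Their levels and fold changes are therefore given as a description, with no p-value. Where the call rule used for all genes is applied to them, it is also a description and not a test. In the BDGP6 annotation all 5 are protein-coding, with CG14499 on chromosome arm 2R and the other genes on 2L. The annotation used here gives CG14499 and CG43055 no description, and for these genes the C-type lectin label rests on the choice of genes alone.

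RNA was sequenced from dissected adult intestines after loss of dMPC1 (Mpc1 in the files), a subunit of the carrier that brings pyruvate into mitochondria. The groups with values were 3 libraries of dMPC1 RNAi, 2 of mCherry RNAi, 2 of dMPC1 mutant and 1 of the precise excision control. In the RNAi experiment myo1A-GAL4 drove the RNAi in enterocytes, the absorptive cells of the gut, and Tub-GAL80ts held it off until adulthood. Adults of 4 to 5 days were then kept for 7 days with the RNAi active. In the paper's staining experiments with this system, such adults were shifted to a temperature above that of the stocks. The controls carried the same driver with RNAi aimed at mCherry, a red fluorescent protein with no fly counterpart. The mutants carried the deletion alleles dMPC1 1 and dMPC1 2 in every tissue and throughout development, were 7 to 10 days old as adults, and were set against homozygotes for a precise excision that leaves dMPC1 intact. The labels give the strain w1118 for all groups. Each library was made from pooled intestines, so the spread between libraries is a spread between pools.

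Lectins are proteins that bind sugars, and C-type lectins form a large family that takes its name from a need for calcium in many members. Insects use secreted C-type lectins to bind sugars on microbes and parasites, and Drosophila has many such genes, often in small clusters. The proteins of lectin-37Da and lectin-37Db, also known as DL2 and DL3, have been found to agglutinate bacteria and to promote the encapsulation of foreign bodies by blood cells. The expression of lectin-24A is known to rise after attack by parasitoid wasps. The gut epithelium meets microbes taken in with food, and its enterocytes also produce antimicrobial peptides under control of the IMD pathway.

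Values are normalized counts, that is, read counts per gene divided by 1 scaling number per library. The libraries held 7362983 to 21918521 reads in genes. The targeted gene followed the labels, with an Mpc1 level of 821 ± 19.0 normalized counts in dMPC1 RNAi (SD, n = 3) and 3025 ± 126 in mCherry RNAi (SD, n = 2), and of 5.31 and 13.7 in the mutants against 1997 in the precise excision control. All 5 genes of an enterocyte marker list were tested in both experiments and none was called. Of all genes tested, 7.03% were called higher and 6.71% lower after RNAi, and 1.31% higher and 2.39% lower in the mutants. The summed level of these 5, mostly of the proteases Jon65Aiv and alphaTry, was 374282 to 473192 in dMPC1 RNAi, against 633205 to 646502 in mCherry RNAi. It was 334273 to 428555 in the mutants, against 555588 in the precise excision control. After RNAi the libraries of the groups did not overlap for any of the 5, as for 62.5% of all genes. None of 8 listed genes of the male accessory gland was in the tables.

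All 5 lectin genes passed the filter on low values in both experiments, with means over the fitted libraries of 10 normalized counts or more. The pattern differed between the experiments. After enterocyte RNAi, CG14499, lectin-37Da and lectin-37Db stood far above their controls and lectin-24A far below, while in the whole-animal mutants CG43055 stood above its control and lectin-24A below. A gene was called when its Benjamini-Hochberg adjusted p in limma was at most 0.01 and its log2 fold change was at least 0.6 in size. By that rule 3 of the 5 were called higher in dMPC1 RNAi, beside 7.03% of all 8921 genes tested, and 1 of the 5 was called lower, beside 6.71%. In the mutants 1 of the 5 was called higher, beside 1.31% of 8794 genes tested, and 1 was called lower, beside 2.39%. The libraries of the compared groups did not overlap for any of the 5 genes in either experiment. That held for 62.5% of all genes in the RNAi experiment and for 80.1% in the mutant experiment, where only 1 control library was present. The median log2 fold change of the 5 genes was 1.57 in the RNAi experiment, against -0.01 over all genes tested, and -1.0 in the mutant experiment, against 0.01. Without dMPC1 RNAi library 1, 2 or 3 the 1226 genes called in the RNAi experiment became 1935, 549 or 694, and without mCherry RNAi library 1 or 3 they became 187 or 307. In the mutant experiment 325 genes were called, and 199 in 1 fit over all libraries. The fits without a mutant library drew on all other libraries for the spread, and called fewer genes than these 199. A call lost in those fits can come from the change of fit as well as from the library left out. Since the 5 genes were chosen on these values, nothing is read from their counts or from the calls of any of them, here or below. In whole intestines, fewer cells of a type and less RNA per cell cannot be told apart.

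**Figure D1:**
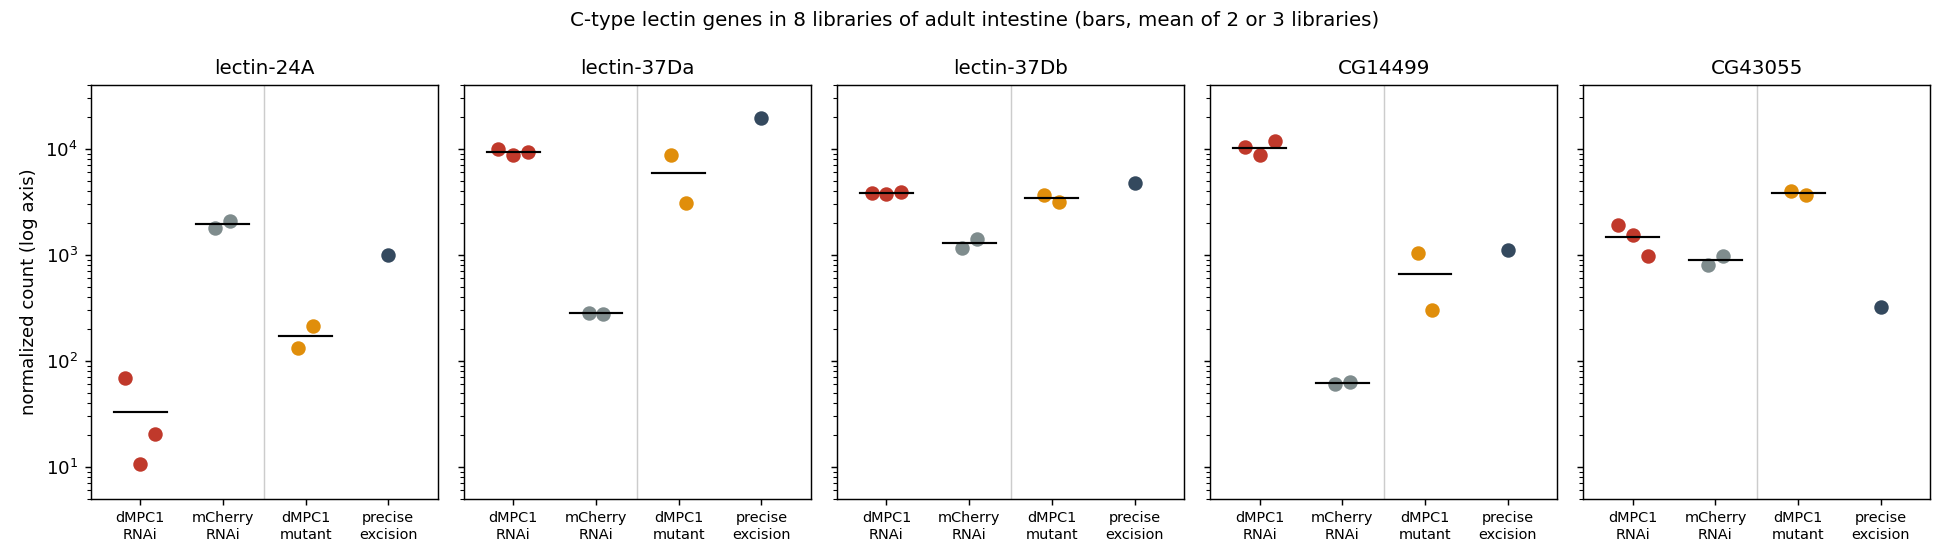
Normalized count (log axis) of each of the 5 C-type lectin genes in every library, by group, with bars at the mean of groups with 2 or 3 libraries. CG14499 sits between 8697 and 11750 in dMPC1 RNAi and near 60 in mCherry RNAi, while CG43055 is at 3668 and 4016 in the mutants and at 320 in the precise excision control.

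Lectin-37Da was measured at 9846, 8749 and 9253 normalized counts in dMPC1 RNAi, against 283 and 279 in mCherry RNAi. All 3 RNAi libraries lay above both controls and the spread within each group was narrow, so that the mean was 33.1-fold higher, a log2 fold change of 5.04 (SE 0.08), the 14th highest of all genes tested. In the other experiment lectin-37Da was measured at 8747 and 3064 in the mutants, against 19430 in the precise excision control. Both mutants lay below the control, with a log2 fold change of -1.91 (SE 0.51), but the mutants also differed 2.85-fold from each other, a range that only 1.12% of all genes reached. Without mutant library 1 this log2 fold change was -2.66 and without mutant library 2 it was -1.15, and in both of these fits, which draw on all other libraries for the spread, the gene met the call rule that it missed with both mutants.

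Lectin-37Db had the same pattern over a smaller range. It was measured at 3792, 3721 and 3951 normalized counts in dMPC1 RNAi, against 1170 and 1410 in mCherry RNAi. The RNAi libraries were again above both controls, with a mean 2.96-fold higher and a log2 fold change of 1.57 (SE 0.10). Its values were 3687 and 3153 in the mutants and 4725 in the precise excision control, a log2 fold change of -0.47 (SE 0.15). For both genes the level in the precise excision control was the highest of the 8 libraries and the levels in mCherry RNAi were the lowest. The RNAi and mutant libraries took the middle of the order, and the RNAi libraries did not lie apart from mutant library 1 by more than the spread among them for either gene.

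CG14499 gave the highest log2 fold change of all 8921 genes tested in the RNAi experiment. It was measured at 10383, 8697 and 11750 normalized counts in dMPC1 RNAi, against 60.3 and 63.4 in mCherry RNAi. No library of one group came near the other, and the mean was 166-fold higher, a log2 fold change of 7.34 (SE 0.13). Per kilobase of exon its mean level stood at percentile 98.9 of all genes in dMPC1 RNAi, against percentile 41.3 in mCherry RNAi. CG14499 was measured at 1029 and 301 in the mutants, against 1118 in the precise excision control. The mutants were both below the control, mutant library 1 only slightly, and the log2 fold change of -1.0 (SE 0.58) became -1.89 without mutant library 1, where the gene met the call rule, and -0.12 without mutant library 2. The range of 3.42-fold between the mutants was reached by 0.774% of all genes.

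CG43055 was the gene with the reverse order of experiments. In the mutants it was measured at 4016 and 3668 normalized counts, against 320 in the precise excision control. The mutants were close to each other and 12.02-fold above the control on average, with a log2 fold change of 3.58 (SE 0.13), the 14th highest of 8794 genes. After RNAi the values were 1908, 1528 and 976 in dMPC1 RNAi, against 809 and 970 in mCherry RNAi. The lowest RNAi library lay next to the highest control library, and the log2 fold change was 0.68 (SE 0.27). The gene met the call rule in none of the fits tried in this experiment. Over the 8 libraries its order was mutants, dMPC1 RNAi, mCherry RNAi and precise excision control, and the neighbours dMPC1 RNAi and mCherry RNAi nearly touched.

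Lectin-24A was the only one of the 5 that was lower in both experiments. It was measured at 68.6, 10.6 and 20.4 normalized counts in dMPC1 RNAi, which are 75, 11 and 25 reads, against 1781 and 2099 normalized counts in mCherry RNAi. The mean was 58.4-fold lower in dMPC1 RNAi, a log2 fold change of -6.23 (SE 0.67), the third lowest of all genes tested. The RNAi libraries differed 6.50-fold among themselves, a range that 0.583% of genes reached, yet the highest of them was far below both controls. Lectin-24A was measured at 132 and 212 in the mutants, against 996 in the precise excision control, 5.79-fold lower on average with a log2 fold change of -2.57 (SE 0.26). The order of levels was mCherry RNAi, precise excision control, mutants and dMPC1 RNAi, with no overlap between neighbours. Without mCherry RNAi library 1 or 3 the log2 fold change in the RNAi experiment was -6.35 or -6.11, and without mutant library 1 or 2 that in the mutant experiment was -2.23 or -2.91, and in each of these 4 fits the gene no longer met the call threshold.

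Genes of tissues attached to the gut also differed between the groups. Rfabg (apolpp), which encodes the precursor of the circulating lipoprotein made in the fat body, fell to 1078, 854 and 1111 normalized counts in dMPC1 RNAi, against 4505 and 3300 in mCherry RNAi (log2 fold change -1.93, limma adjusted p = 0.000568), and to 765 and 831 in the mutants, against 4333 in the precise excision control (log2 fold change -2.44, limma adjusted p = 8.82e-05). Of the fat body list 5 of 7 genes were in the tables. In the RNAi experiment 2 of them passed the filter and both were called lower, beside 6.71% of all genes tested. In the mutant experiment 3 passed, with a median log2 fold change of 2.02. Lsp2 was called higher there, beside 1.31% of all genes, and Rfabg lower, beside 2.39%. The summed level, most of which was Rfabg, of the list was 905 to 1162 in dMPC1 RNAi, against 3441 to 4684 in mCherry RNAi, and 876 to 980 in the mutants, against 4364 in the precise excision control. Of the fat body genes below the filter after RNAi, Lsp2 and Lsp1beta were higher, while Fbp2 overlapped its controls. Lsp2 was at 5.49, 8.64 and 5.72 in dMPC1 RNAi and at 0 in both mCherry RNAi libraries. Lsp1beta was at 8.23, 15.4 and 12.3, against 2.19 and 2.08. Rfabg was called in every fit without 1 library, and Lsp1gamma, the other gene called in the RNAi experiment, in 4 of 5. Of the blood cell list 6 of 7 genes were in the tables. None of the 5 that passed the filter in the RNAi experiment was called. In the mutants 2 of 6 were called lower, NimC1 and Ppn, beside 2.39% of all genes tested. Neither was called without 1 of the mutant libraries, which held also for the higher call of Lsp2. Their summed level was 901 to 1004 in dMPC1 RNAi, against 814 to 1367 in mCherry RNAi, and 1287 to 1502 in the mutants, against 3511 in the precise excision control. Yp1, a yolk protein gene of the egg chamber list that the fat body also expresses, was called lower in dMPC1 RNAi (log2 fold change -1.73, limma adjusted p = 0.000885) and in the mutants (log2 fold change -1.84, limma adjusted p = 0.000780), a call lost without mCherry RNAi library 1 (limma adjusted p = 0.0144) and without mutant library 1 (0.0212) or 2 (0.0171). The 4 Malpighian tubule markers summed to 7409 to 10051 in dMPC1 RNAi, against 15189 to 17011 in mCherry RNAi. Of these 1 was called lower, beside 6.71% of all genes tested. In the mutants they summed to 16347 to 19081, against 11197 in the precise excision control, with 1 called higher, beside 1.31%. The 4 visceral muscle markers summed to 8005 to 8844 in dMPC1 RNAi, against 9622 to 10502 in mCherry RNAi. In the mutants they summed to 8206 to 8207, against 14347 in the precise excision control, with 1 called lower, beside 2.39%. These tubule and muscle calls were lost in both fits without a mutant library, and the tubule call after RNAi in both fits without a control library. The part of these tissues in the lectin-24A values was not tested.

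The 2 control genotypes also differed from each other at these genes. Lectin-37Da was 69.2-fold higher in the precise excision control than in the mean of the mCherry RNAi controls, CG14499 was 18.1-fold higher and lectin-37Db 3.66-fold higher. In the other direction, CG43055 in the precise excision control was at 0.359 times and lectin-24A at 0.514 times the mCherry RNAi mean. Over all 8916 genes compared, 2.21% were at least 4-fold higher in the precise excision control and 1.60% at least 4-fold lower. All libraries had been scaled together, but the controls differ in genotype and age and the precise excision control is 1 library. The RNAi controls may also differ in temperature, since the paper's staining experiments with Tub-GAL80ts used a shift to a higher one. These sources cannot be told apart. The levels of lectin-37Da, lectin-37Db and CG14499 in dMPC1 RNAi lay above their own controls, while those of lectin-37Da and lectin-37Db lay below the precise excision control.

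**Figure D2:**
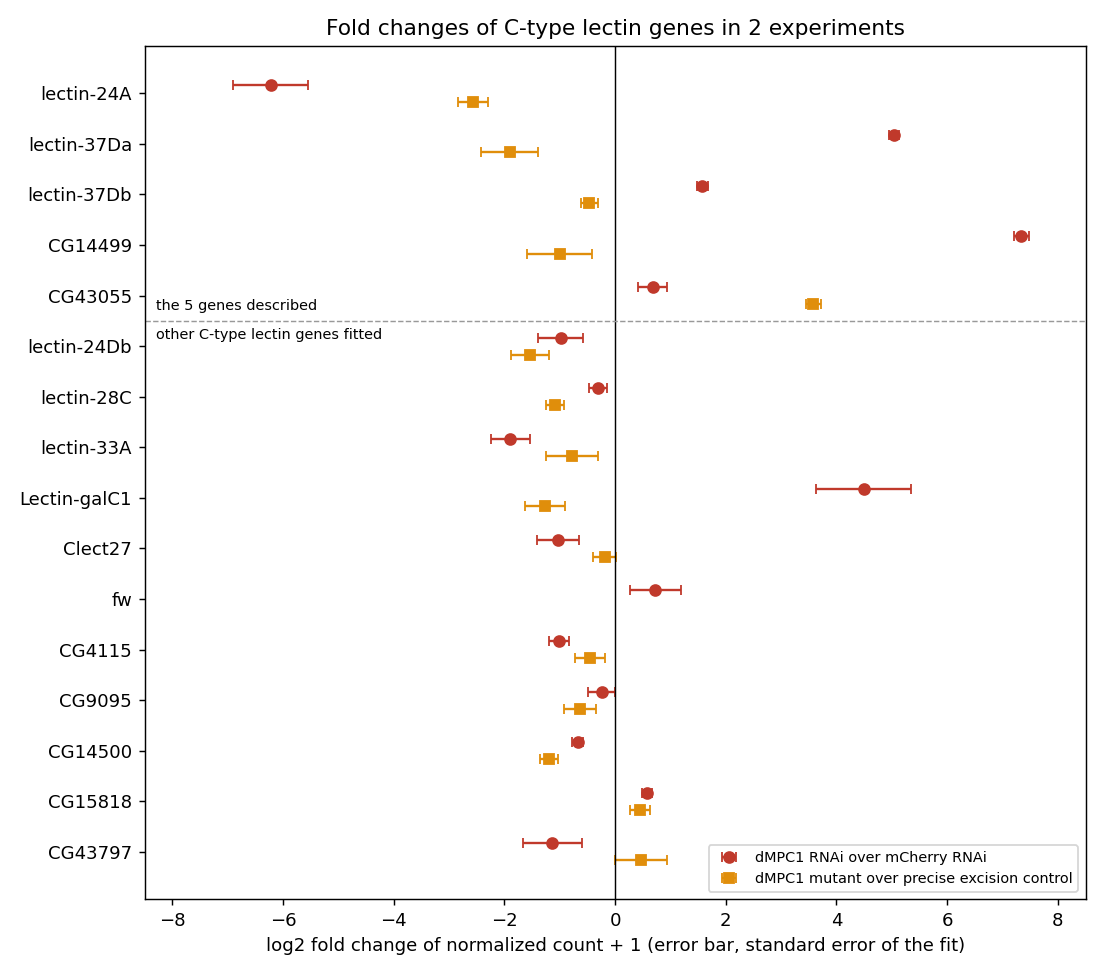
Log2 fold change on the log2(normalized count + 1) scale, with its standard error, of the 5 genes and of the other C-type lectin genes that were fitted, for dMPC1 RNAi over mCherry RNAi (circles) and dMPC1 mutant over precise excision control (squares). Lectin-37Da, lectin-37Db, CG14499 and Lectin-galC1 lie right of 0 in the RNAi experiment and left of 0 in the mutant experiment.

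Lectin-37Da, lectin-37Db and Lectin-galC1, a lectin that binds galactose, stand side by side on the same strand. All 3 lie inside Pax, which encodes the adhesion protein paxillin and runs on the opposite strand. Lectin-37Da and lectin-37Db share no exon bases with Pax, and for Lectin-galC1 this was not examined. Lectin-galC1 was measured at 103, 57.6 and 35.1 normalized counts in dMPC1 RNAi, against 0 and 6.24 in mCherry RNAi, where the 0 reads of the first control library allow up to 3.29 normalized counts. It was called higher with a log2 fold change of 4.49 (SE 0.86, limma adjusted p = 0.00935). In the mutants it was measured at 27.6 and 22.2, against 61.3 in the precise excision control, and was not called (log2 fold change -1.27, limma adjusted p = 0.0782). The Lectin-galC1 call was lost without dMPC1 RNAi library 2 (limma adjusted p = 0.0397), without dMPC1 RNAi library 3 (0.0223) and without mCherry RNAi library 1 (0.0367). Pax was measured at 1816, 1475 and 1498 in dMPC1 RNAi, against 1390 and 1484 in mCherry RNAi, and at 1489 and 1516 in the mutants, against 1568 in the precise excision control, and was called in neither experiment (limma adjusted p = 0.355 and 0.826). The next gene along, CG16771, was lower in dMPC1 RNAi, at 1667, 1502 and 1515, against 3062 and 2773 in mCherry RNAi (log2 fold change -0.90, limma adjusted p = 0.000885), a call that was lost without mCherry RNAi library 1 (limma adjusted p = 0.0203) or library 3 (0.0113). CG16771 thus went the other way from the adjacent lectin genes after RNAi.

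Within each library the balance of lectin-37Da to lectin-37Db can be read without any scaling between libraries. Per kilobase of exon, lectin-37Da was at 2.24, 2.03 and 2.02 times the level of lectin-37Db in dMPC1 RNAi, against 0.209 and 0.171 times in mCherry RNAi. The pair thus exchanged order between these groups. The ratios were 2.05 and 0.839 in the mutants, against 3.55 in the precise excision control. How reads that match both genes were counted is not given in the sources used here, and such reads could be split between them.

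CG14499 has CG14500, another C-type lectin gene, as its neighbour on the same strand. CG14500 was measured at 3592, 3195 and 3797 normalized counts in dMPC1 RNAi, against 5421 and 5794 in mCherry RNAi, and was called lower (log2 fold change -0.67, SE 0.10, limma adjusted p = 0.00368). In the mutants it was measured at 2078 and 2528, against 5268 in the precise excision control, and was also called lower (log2 fold change -1.20, SE 0.16, limma adjusted p = 0.00480). The call in the RNAi experiment was lost without dMPC1 RNAi library 2 (limma adjusted p = 0.0135), without mCherry RNAi library 1 (0.0398) and without mCherry RNAi library 3 (0.0487), and that in the mutant experiment without mutant library 1 (0.0163). After RNAi the adjacent genes lay on opposite sides of their controls. Per kilobase of exon CG14499 was at 2.26, 2.13 and 2.42 times the level of CG14500 in dMPC1 RNAi, against 0.00868 and 0.00855 times in mCherry RNAi. The ratios were 0.387 and 0.0930 in the mutants, against 0.166 in the precise excision control, which lay between them.

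**Figure D3:**
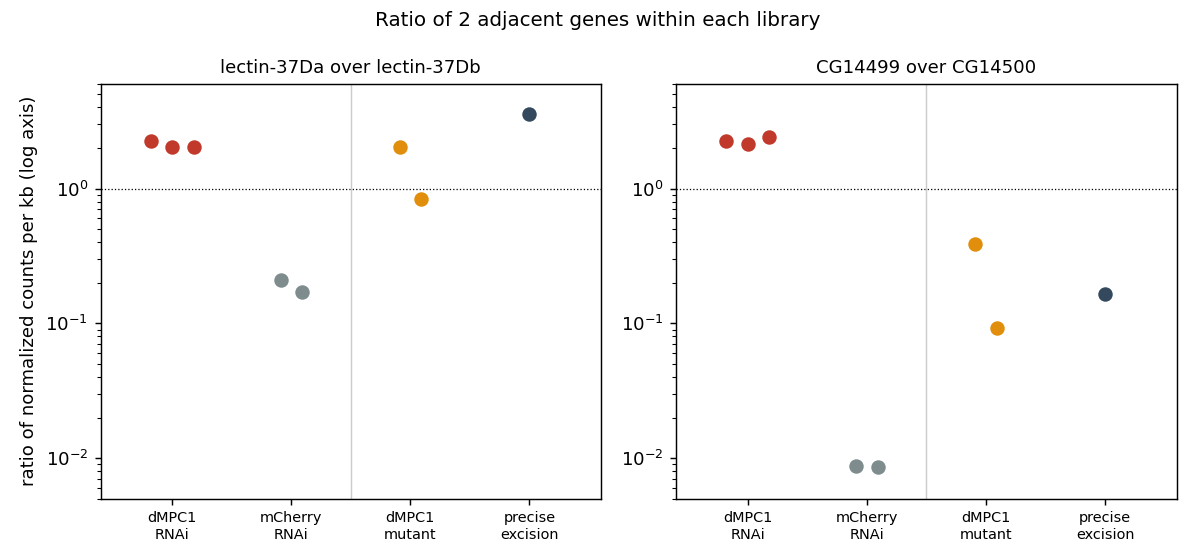
Ratio of normalized counts per kilobase of exon (log axis) of lectin-37Da to lectin-37Db and of CG14499 to CG14500 within each library, by group, with a dotted line at equal levels. All 3 dMPC1 RNAi libraries are above 2 for both pairs, and both mCherry RNAi libraries are below 0.3 for the first pair and below 0.01 for the second.

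CG14499 also lies inside CG33958, a gene on the opposite strand with no shared exon bases. CG33958 was measured at 79.6, 77.8 and 102 normalized counts in dMPC1 RNAi, against 0 and 4.16 in mCherry RNAi (log2 fold change 5.26, limma adjusted p = 0.00196), and at 61.6 and 23.9 in the mutants, against 91.5 in the precise excision control (log2 fold change -1.23, limma adjusted p = 0.201). Its call was lost without dMPC1 RNAi library 2 (limma adjusted p = 0.0131) or library 3 (0.0117). The direction of CG33958 was that of CG14499 in both experiments. CG43055 lies in the same way inside CG15431, on the opposite strand. CG15431 was measured at 378 and 322 in the mutants, against 59.2 in the precise excision control (log2 fold change 2.54, limma adjusted p = 0.000280), and at 547, 380 and 306 in dMPC1 RNAi, against 459 and 415 in mCherry RNAi (log2 fold change -0.13, limma adjusted p = 0.697). Without mutant library 1 or 2 the adjusted p of CG15431 in the mutant experiment was 0.0184 or 0.0162. Whether the counting used the strand of the reads is not given in the sources used here. In BDGP6 the exons of CG14499 and CG43055 share 0 bases with those of their antisense partners, so reads within these exons differ by position. Without strand, reads that run outside a gene's own exons could still be counted for its partner, which was not tested. Per kilobase of exon CG33958 stayed below 3% of CG14499 and CG15431 below 6% of CG43055 in all 8 libraries. Lectin-24A overlaps the end of CG2818 on the opposite strand, which was called in neither experiment (limma adjusted p = 0.292 after RNAi and 0.217 in the mutants), and neither was Shaw, on its other side (0.123 and 0.842). Beyond CG2818 lies CG31955, measured at 36.6, 45.1 and 71.1 normalized counts in dMPC1 RNAi, against 9.86 and 7.28 in mCherry RNAi, and called higher (log2 fold change 2.40, limma adjusted p = 0.00339), while lectin-24A was lower. That call remained in 1 of 5 fits without 1 library, with limma adjusted p from 0.0134 to 0.0313 in the others, and CG31955 was not called in the mutants (0.704).

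**Figure D4:**
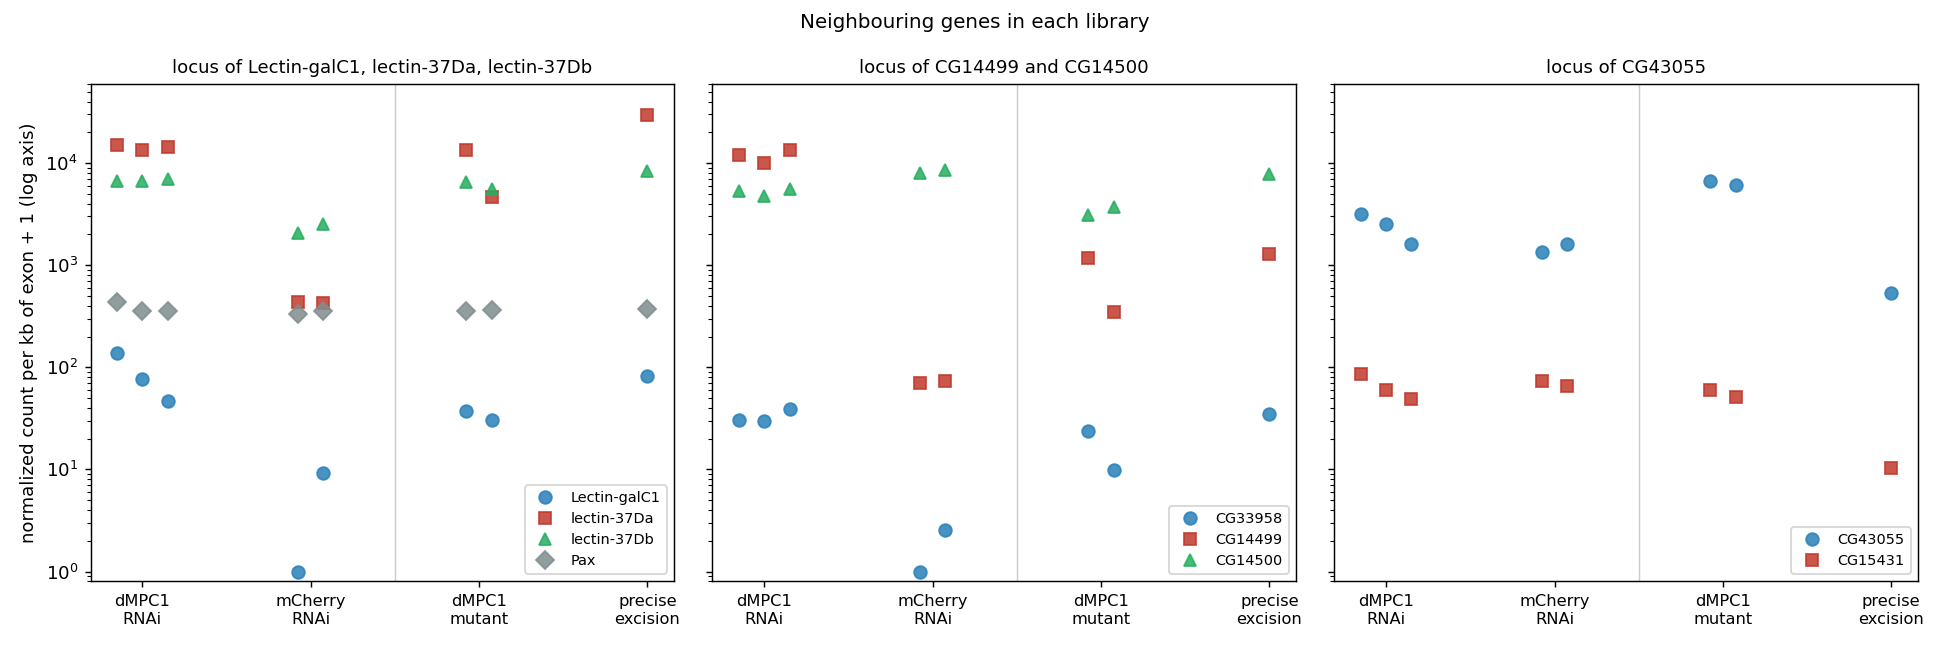
Normalized count per kilobase of exon plus 1 (log axis) of lectin-37Da, lectin-37Db, CG14499, CG43055 and close neighbours in every library. The panels are the Lectin-galC1, lectin-37Da and lectin-37Db locus with Pax, the CG14499 and CG14500 locus with CG33958, and the CG43055 locus with CG15431. Lectin-24A and its neighbours are not shown. Pax is level across the groups, and the antisense genes CG33958 and CG15431 lie far below the lectin genes they surround.

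A list of 32 other C-type lectin genes was taken by family and not by value, though with earlier results of these data known. Of these, 15 genes were in the tables. In the RNAi experiment 11 passed the filter, of which 1 was called higher and 3 lower, beside 7.03% and 6.71% of all genes tested, with a median log2 fold change of -0.67, against -0.01 over all genes. Lectin-galC1 was the gene called higher. Beside CG14500, the genes called lower were lectin-33A, at 20.1, 9.60 and 11.4 normalized counts in dMPC1 RNAi, against 53.7 and 48.9 in mCherry RNAi (log2 fold change -1.89, SE 0.36, limma adjusted p = 0.00889), and CG4115, at 43.9, 35.5 and 44.1 in dMPC1 RNAi, against 81.1 and 87.3 in mCherry RNAi (log2 fold change -1.02, SE 0.18, limma adjusted p = 0.00701). CG15818 was measured at 2514, 2266 and 2638 in dMPC1 RNAi, against 1699 and 1607 in mCherry RNAi, and its limma adjusted p was 0.00490, but its log2 fold change of 0.58 was just under the threshold. Of the 4 calls, none remained without dMPC1 RNAi library 2 or without mCherry RNAi library 1, 1 remained without dMPC1 RNAi library 3 and 1 without mCherry RNAi library 3. Lectin-33A and CG4115 lost their call in each of these 4 fits, with limma adjusted p from 0.0291 to 0.0871 for lectin-33A and from 0.0195 to 0.0693 for CG4115.

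In the mutant experiment 10 of the 15 passed the filter, of which none was called higher and 2 lower, beside 1.31% and 2.39% of all genes tested, with a median log2 fold change of -0.71, against 0.01 over all genes. Lectin-28C was measured at 174 and 192 normalized counts in the mutants, against 387 in the precise excision control (log2 fold change -1.08, SE 0.16, limma adjusted p = 0.00793). CG14500 was the other gene called. Without mutant library 1 or 2 the log2 fold change of lectin-28C was -1.01 or -1.15. Its call was already lost in the fit over all libraries with none left out. The difference between the experiments, fitted over all 8 libraries, passed an adjusted p of 0.01 for 8.71% of 8916 genes. It passed for none of the other C-type lectin genes, of which 3 had an unadjusted p under 0.05 in limma. Lectin-galC1 came nearest, with a difference of 5.76 on the log2 scale (SE 1.31, limma adjusted p = 0.0190), and lectin-28C followed (0.77, SE 0.23, limma adjusted p = 0.0476). For the 5 genes chosen on these values the same difference is a description, at 8.35 (SE 0.71) for CG14499, 6.95 (SE 0.60) for lectin-37Da, 2.04 (SE 0.18) for lectin-37Db, -2.90 (SE 0.41) for CG43055 and -3.66 (SE 1.06) for lectin-24A.

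Genes of gut immunity were described from 2 further lists. Of 20 antimicrobial peptide genes 13 were in the tables. In the RNAi experiment 6 passed the filter and 3 were called higher, Drsl2, Drsl3 and AttD, beside 7.03% of all genes tested, with none called lower, beside 6.71%. Drsl2, a drosomycin-like peptide gene, was measured at 129, 304 and 467 normalized counts in dMPC1 RNAi, against 2.19 and 7.28 in mCherry RNAi (log2 fold change 5.69, limma adjusted p = 0.00107), and at 2.13 and 1.71 in the mutants, against 261 in the precise excision control (log2 fold change -6.49, limma adjusted p = 0.00117). In the mutant experiment 9 passed, and Drs and Def were called higher, beside 1.31% of all genes tested, and Drsl2 lower, beside 2.39%. Drs, the antifungal peptide drosomycin, was measured at 311 and 985 in the mutants, against 22.6 in the precise excision control (log2 fold change 4.55, limma adjusted p = 0.00345). Without mCherry RNAi library 1 the adjusted p of Drsl2 in the RNAi experiment was 0.0160, and without mutant library 1 or 2 it was 0.0160 or 0.0220 in the mutant experiment. Drsl3 and AttD kept the call in 2 of 5 fits without 1 library, and Drs and Def in 0 of 2. Drsl2 was thus, like lectin-37Da, lectin-37Db and CG14499, higher than its control after RNAi and lower than its control in the mutants. Of these genes only Drsl2 was called lower in the fit with both mutants.

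Of 22 genes of peptidoglycan recognition and the IMD pathway 21 were in the tables. In the RNAi experiment 21 passed the filter and 3 were called higher, key, PGRP-SD and ird5, beside 7.03% of all genes tested. The gene key, which encodes the regulatory subunit of the kinase that activates the pathway's transcription factor, was measured at 2088, 1860 and 1833 normalized counts in dMPC1 RNAi, against 722 and 726 in mCherry RNAi (log2 fold change 1.41, limma adjusted p = 0.000208). Key was called in all 5 fits without 1 library, and PGRP-SD and ird5 in 1 of 5 each. In the mutant experiment 20 passed and 2 were called higher, PGRP-LF and PGRP-SC1a, beside 1.31% of all genes tested, in neither case without 1 of the mutant libraries. The median log2 fold change of this list was -0.02 after RNAi and 0.14 in the mutants.

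Finally, the genes whose log2 levels followed each lectin gene most closely over the 8 libraries were ranked by Pearson's r among 8915 genes, as a description. The libraries fall into 4 groups and share their scaling, so that r mostly restates differences between the groups. Lectin-37Da and lectin-37Db followed each other at 0.989, and CG14499 followed them at 0.836 and 0.814. The nearest genes were l(1)G0193, LBR and Psa for lectin-37Da (0.992 to 0.998), Kaz1-ORFB, CG43064 and Cyp6a20 for lectin-37Db (0.990 to 0.992), and RhoGEF4, galectin and Rrp1 for CG14499 (0.988 to 0.997). For lectin-24A they were Jon65Aii, a serine protease gene of the gut, Mef2, a muscle transcription factor, and daw, an activin-like ligand (0.986 to 0.991). Daw averaged 112 normalized counts in dMPC1 RNAi and 1403 in mCherry RNAi, and 328 in the mutants and 645 in the precise excision control. For CG43055 they were CG5543, CG33978 and CR45136 (0.965 to 0.979), and its r with the other 4 lectin genes ran from -0.398 to 0.122.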

How the data were processed

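The authors aligned reads to dm3 and normalized gene counts (Novoalign and DESeq in the submitters' processing notes), and pooled intestines for each library. No source used here gives their versions. The deposited values are a signal, gene counts divided by 1 size factor per library. Dividing by the value of 1 read gave whole reads for 100% of values (tolerance 0.001). Both tables share 1 scaling. Of 12 labelled libraries 8 had values, and 4 were not analysed here. The tables' columns of fold changes and adjusted p were not used.

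The libraries of each experiment were fitted apart from the other's with limma 3.58.1 (R 4.3.3, trend) on log2(normalized count + 1), which understates changes of low genes, keeping genes with a mean of at least 10. Adjusted p (Benjamini-Hochberg) covers all genes kept. The difference between experiments used all 8 libraries, and each fit without a mutant library used all the others. The mutant fit has 1 control library, assumed to vary like the 2 mutants. Alternatives were a pseudocount of 5, no filter, edgeR 4.0.16 (TMM) and DESeq2 1.42.0 on whole reads, 1 fit over all libraries, leaving out each library and a replicate block. The fits were checked on simulated data.

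The 5 genes and the gene lists were chosen with earlier results of these data known. The text names these genes, their annotated neighbours (2 on each side, named where a result turns on one), called genes of the family, up to 3 called immune genes per list and experiment and the 3 most alike genes. Names, neighbours and exon lengths come from BDGP6 (9791 of 9981 genes matched), and no coordinates are given because the builds differ. The methods call the replicates biological, each a pool of intestines, and give more per genotype than the 3 that the labels number. Replicate libraries differed beyond sampling noise. Depth was 7362983 to 21918521 reads per library.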

Additional observations from a re-analysis of the deposited data

Results flagged for a closer look

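Log2 fold changes of opposite sign in the experiments drew attention to 4 genes, each with every dMPC1 RNAi library above its controls and every mutant below the precise excision control. Groups did not overlap, in either direction, for 62.5% of all genes after RNAi and for 80.1% in the mutant experiment. None of the 4 was called lower in the fit with both mutants. The dMPC1 RNAi effect minus the mutant effect was 6.95 on the log2 scale for lectin-37Da, 2.04 for lectin-37Db and 8.35 for CG14499. These genes were chosen on their values, so the difference was not tested. For Lectin-galC1 it was 5.76 (limma adjusted p = 0.0190), which did not pass the threshold.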

How the results depend on the processing

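Leaving out 1 library at a time called 187 to 1935 genes in the RNAi experiment, against 1226 with all libraries, and 85 to 106 in the mutant experiment, against 325. For the other C-type lectin genes it called 0 to 5 (4 with all) in the RNAi experiment, 0 to 1 (2 with all) in the mutant experiment, and 0 to 1 (0 with all) for the difference between the experiments. In the mutant experiment no filter on low values gave 0 calls in limma, with 1842 genes at an unadjusted p under 0.05, edgeR gave 132 (1158 in the RNAi experiment), DESeq2 395 and 1 fit over all libraries 199. The other C-type lectin calls there were 0 with no filter, 0 in edgeR, 1 in DESeq2 and 1 in the fit over all libraries, and the cause was not tested. A pseudocount of 5 gave 1 call for the difference, whose alternatives were all chosen after seeing the data. The fits without a mutant library drew on all other libraries for the spread. Their counts therefore compare with the 199 genes and 1 other C-type lectin call of the fit over all libraries, and not with 325 and 2.

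The replicate numbers of the RNAi groups are not stated to pair libraries, 2 numbers are shared, and the deviations of replicate 1 correlated at -0.209 between the groups. With the replicate block 839 genes were called and 0 of the other C-type lectin genes, with 6 at an unadjusted p under 0.05. For the mutant experiment, no paired analysis was possible because its groups share only 1 replicate number.

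The log2 fold changes of the 5 genes kept their sign in all alternatives. In the RNAi experiment 53 values moved by less than the spread between replicates and 2 by more, those of lectin-37Db without a control library. In the mutant experiment all 35 moved by less, but the fits without a mutant library could not have given more. With 2 mutants, leaving out either shifts their mean by a fixed part of the difference between them, always less than their spread. CG14499 had a log2 fold change of -1.89 without mutant library 1 and -0.12 without mutant library 2, and both counted as moving by less. Stability is therefore not read from these fits. Calls of other C-type lectin genes were kept in 25 cases and lost in 19 in the RNAi experiment, and kept in 5 and lost in 9 in the mutant experiment. The single precise excision library and low reads limit these values.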

Other observations

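Of 3 progenitor markers of the gut, not described above, 2 were called higher after RNAi, beside 7.03% of all genes tested. In the mutants 0 were called, beside 1.31% of all genes called higher and 2.39% called lower. Sox21a, a transcription factor of intestinal progenitors, was measured at 481, 390 and 410 normalized counts in dMPC1 RNAi, against 59.2 and 93.6 in mCherry RNAi (log2 fold change 2.50, limma adjusted p = 0.000453), and was called in all 5 fits without 1 library. In the mutants it was measured at 282 and 142, against 378 in the precise excision control (log2 fold change -0.91, limma adjusted p = 0.173). Dl, the Notch ligand of intestinal stem cells, was measured at 139, 146 and 141 in dMPC1 RNAi, against 57.0 and 52.0 in mCherry RNAi (log2 fold change 1.37, limma adjusted p = 0.000750), and kept its call in 3 of 5 such fits. The summed level of the 3 markers was 966 to 1073 in dMPC1 RNAi, against 408 to 445 in mCherry RNAi, and 450 to 686 in the mutants, against 833 in the precise excision control. Their part in the lectin values was not tested.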
